A study of Mus musculus with 5 samples.

Results

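The serpin family was followed in bulk RNA profiles of mouse liver tumours with and without late overexpression of the transcription factor Prox1. Members were the genes whose mouse symbol begins with Serpin and whose normalised count averaged at least 10 over the 5 libraries. Of 68 serpin genes among the 55397 genes listed, 39 met this minimum, 29 lay below it and 8 of those 29 had no read in any library. The 39 members were described by clade, the sequence-based groups lettered from A onwards, and set beside all 17105 genes that passed the same minimum.

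Serpins share a fold with an exposed loop that acts as bait for a protease. When the protease cuts the loop, the serpin changes shape and holds the enzyme in an inactive complex, so the sequence of the loop decides which protease is caught. Hepatocytes secrete many serpins of clades A, C, D, F and G into blood, where they restrain clotting, fibrin breakdown, complement and leukocyte proteases. Clade B serpins mostly stay inside cells, and some family members have lost inhibition altogether and carry hormones or assist protein folding.

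Tumours were raised in female C57BL/6N mice injected at 8 weeks of age by hydrodynamic tail vein injection (HDTVI), which delivers plasmid mainly to hepatocytes. All mice received Sleeping Beauty transposase with transposons for Akt and for NICD, the active part of a NOTCH receptor, joined to the doxycycline-responsive activator rtTA, a combination that gives tumours of cholangiocarcinoma (CCA) type. Mice behind the 3 Prox1 OE libraries also received FLAG-tagged mouse Prox1 followed by GFP behind a doxycycline-responsive promoter, whereas the 2 Control libraries came from mice given the same promoter with GFP alone. The labels state a diet with 6.25% doxycycline hyclate from day 21, overexpression from week 3 to 4, and collection either after that week or once a humane endpoint was reached, and the reason is not given for each tumour. They do not tie libraries to individual mice, so p-values measure the spread between these libraries. Total reads were 48740863 to 56629477 per library, and replicates of a group differed by more than sampling noise. Prox1 itself had 4153 and 4664 normalised counts in Control and 48090, 11113 and 8231 in Prox1 OE, above both Control libraries in every case although the difference had a limma adjusted p of 0.0607.

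Normalised counts are reads divided by a size factor for the library, and values are given in replicate order. A gene was called higher or lower when its limma adjusted p, corrected over all 17105 genes, was below 0.05, with fold changes on the log2(normalised count + 1) scale. Among the 39 members, 15 were called higher in Prox1 OE (38.5%) and 9 lower (23.1%), against 17.1% and 16.2% of all genes tested (33.3% in either direction). A log2 change of at least 1 accompanied the call in 14 of those that rose and 5 of those that fell, where the shares over all genes were 8.35% and 5.55%. The median log2 fold change of the members was 0.52, against -0.02 for all genes. For 18 members all Prox1 OE values exceeded the Control values, for 12 they lay beneath them, and for 9 they overlapped. Over all genes the shares above and below were 30.9% and 32.4%, 63.3% together, so a lack of overlap was common in these libraries.

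The hepatocyte and bile duct markers moved at the same time, which sits beside every result on liver-secreted serpins. In these bulk samples, more cells of a type and more RNA per cell cannot be told apart. Of 8 hepatocyte markers, 7 were called higher, with a summed level of 693704 to 1126010 normalised counts in Control and 2393720 to 3715120 in Prox1 OE. Of 6 cholangiocyte markers, 5 were called lower, with sums of 745210 to 814244 and 518899 to 701156, most of it from Spp1, the marker not called. How far the hepatocyte share of the tumours accounts for the serpin differences was not tested.

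**Figure D1:**
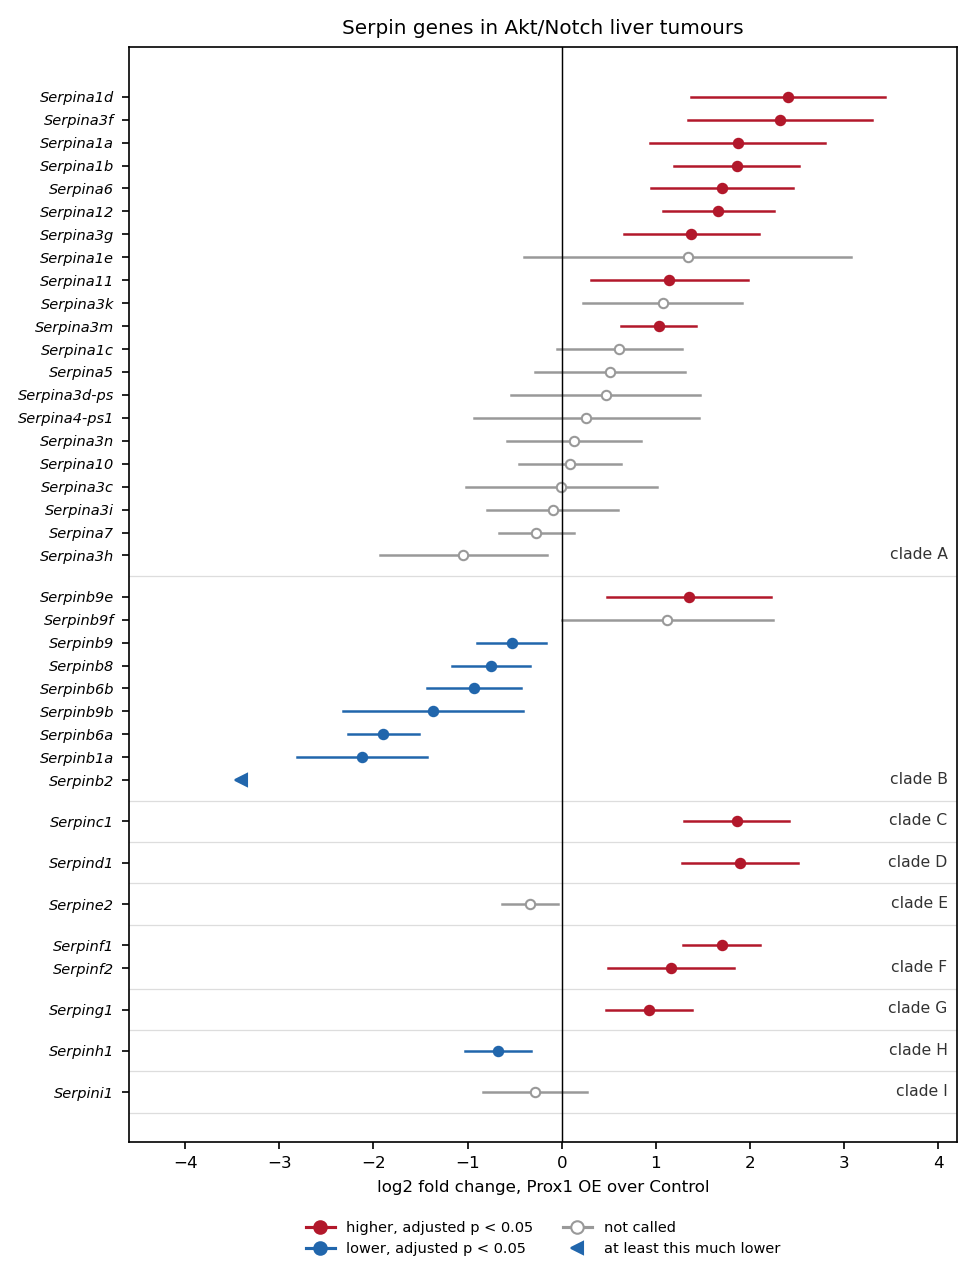
Log2 fold change (x axis, Prox1 OE over Control) of serpin genes, arranged by clade on the y axis, with bars for the 95% confidence interval from 2 Control and 3 Prox1 OE libraries. Filled red points are the 15 genes called higher, filled blue points the genes called lower and open points those not called, and the blue triangle for Serpinb2 marks a minimum fall because it had no read in Prox1 OE.

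Calls divided by clade. Of 21 clade A members, 9 were called higher and 0 lower, with a median log2 fold change of 1.03. The 5 members of clades C, D, F and G were all called higher. In clade B the balance was the reverse, with 7 of 9 called lower, 1 called higher and a median of -0.93, which was the same with Serpinb2 set at its minimum fall. Serpinh1 of clade H was called lower, and Serpine2 and Serpini1 were not called.

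The split of calls depended in part on how libraries were scaled. When libraries were scaled by their total count, the median of all genes moved to -0.44 and the serpin calls became 13 higher and 13 lower, so that 50% rather than 62.5% of them were higher. The share of higher calls over all genes dropped from 51.4% to 17.8% under the same scaling. Under that scaling 8 clade A members were called higher and 2 lower, the 5 members of clades C, D, F and G stayed higher, and 7 of 9 clade B members were lower. Leaving out 1 library had a larger effect on the counts. Without Control replicate 1, 5 members were called higher and 4 lower, and without Prox1 OE replicate 2, 13 were called higher and 5 lower. By clade, only 1 of 21 clade A members, 3 of the 5 members of clades C, D, F and G and 1 of 9 clade B members were called higher without Control replicate 1, and 3 clade B members lower. Clade B also had 3 lower calls without Prox1 OE replicate 2 and 4 without Control replicate 2, whereas clade A had 7 to 9 higher calls when any library but Control replicate 1 was left out. Over all genes, calls numbered 1158 without Control replicate 1, against 5702 with every library. A fit without 1 Control takes the remaining Control library to vary like the others.

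**Figure D2:**
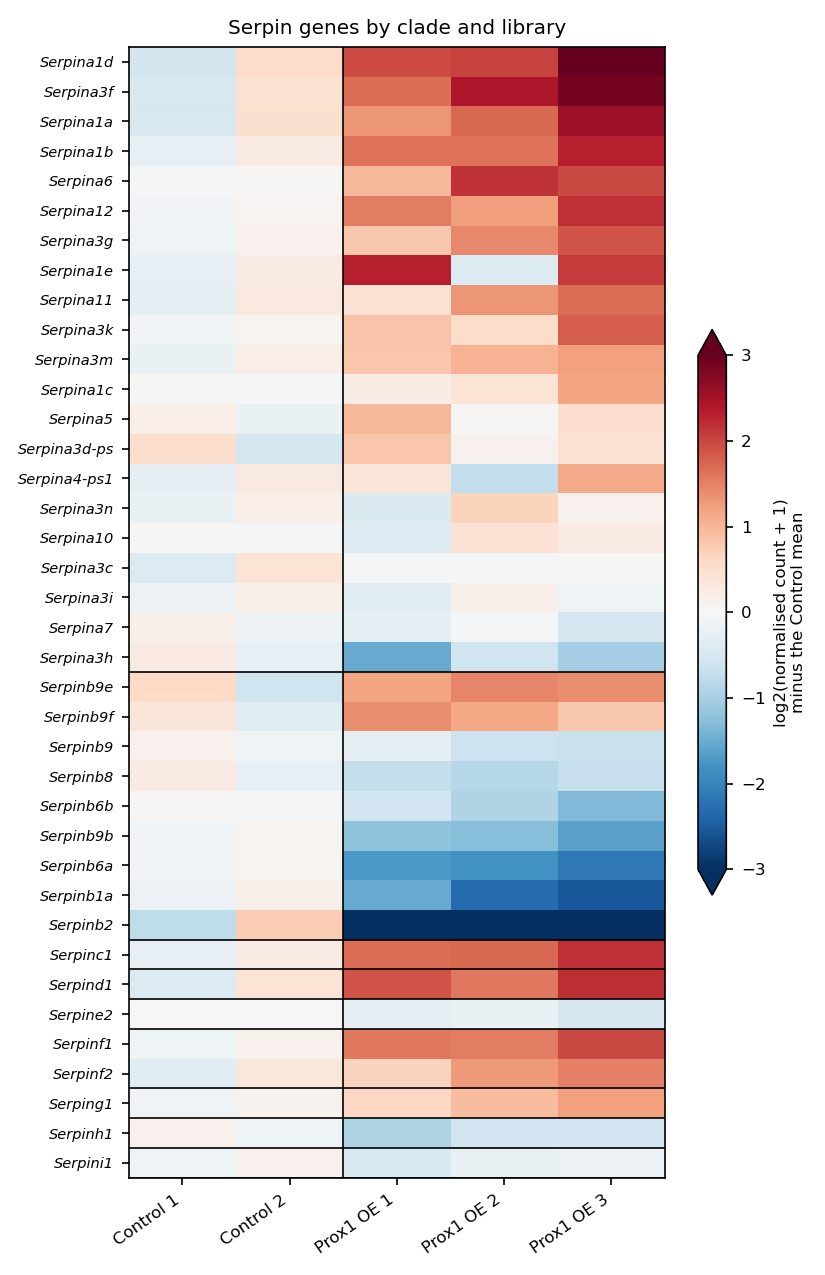
Level of serpin genes in each library, as log2(normalised count + 1) minus the mean of both Control libraries, with genes ordered by clade and fold change (black lines separate clades and groups). Red fills most Prox1 OE cells of the upper clade A genes and of clades C, D, F and G, blue fills those of clade B below Serpinb9f, and colours saturate beyond 3 in either direction.

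Together the 39 serpins made up 0.701% and 0.807% of all normalised counts in Control and 1.02%, 1.07% and 1.48% in Prox1 OE. Summed, they averaged 336716 ± 46852 normalised counts over the Control libraries (SD, n = 2) and 722953 ± 213442 over the Prox1 OE libraries (SD, n = 3), a ratio of 2.15. Among the 3 Prox1 OE libraries alone, replicate 3 held the highest level of 19 of the 30 members with a mean of at least 100, whereas replicate 1, with the most Prox1, was highest of the 3 for 5. Levels were divided by the length of all annotated exons so that genes could be compared. On this scale Serpina3k had a group mean of 28452.6 normalised counts per kb in Control and 64275.5 in Prox1 OE. On the same per kb scale Serpina1c (27739.6) exceeded Serpina1b (16259.5) in Control, and the order turned round in Prox1 OE, where Serpina1b reached 59918.8 and Serpina1c 44248.9. The place of Serpina1b relative to Serpina3k depended on the length taken: per kb of 1 transcript of 1762 bases, in place of 2415 exon bases, Serpina1b had 82125 in Prox1 OE, above Serpina3k.

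The Serpina1 genes encode alpha-1 antitrypsin, the main plasma inhibitor of neutrophil elastase, which mice carry in several near-identical copies. The copies lie on the minus strand of chromosome 12 and are less alike in the loop that meets the protease than in the rest of their coding sequence. Their coding sequences were 96.3% to 98.5% identical over the 10 pairs. The stretch from the hinge of the loop to the end of the strand after it was only 85.2% to 93.8% identical, below the rest of the coding sequence in 10 of 10 pairs. These 81 bases are shown because they encode the bait loop and are less alike than the rest of the coding sequence, with capitals at the 18 positions that vary among them (GENCODE M21 transcripts). Coordinates are on GRCm38, the sequence of mm10.
Serpina1a, chr12:103853750-103853830, minus strand: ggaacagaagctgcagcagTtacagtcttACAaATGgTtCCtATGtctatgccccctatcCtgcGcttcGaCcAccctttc
Serpina1b, chr12:103728317-103728397, minus strand: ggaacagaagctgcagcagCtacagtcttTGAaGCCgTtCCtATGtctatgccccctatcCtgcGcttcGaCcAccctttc
Serpina1c, chr12:103895087-103895167, minus strand: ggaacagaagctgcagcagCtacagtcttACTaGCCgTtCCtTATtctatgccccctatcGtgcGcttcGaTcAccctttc
Serpina1d, chr12:103763755-103763835, minus strand: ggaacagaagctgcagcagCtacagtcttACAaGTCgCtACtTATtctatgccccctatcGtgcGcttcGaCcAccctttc
Serpina1e, chr12:103947093-103947173, minus strand: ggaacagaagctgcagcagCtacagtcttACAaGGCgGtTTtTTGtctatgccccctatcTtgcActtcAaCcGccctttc
Most of the capitals stand in the middle of the stretch, where the bait residues are encoded, and the opening 19 bases are the same in all 5 genes. Because much of the remainder is shared, reads cannot always be given to 1 copy. Windows of 100 bases that also occur in another gene's transcripts made up 49.9% of the Serpina1a transcript, 20.6% of Serpina1b, 58.5% of Serpina1c, 29.3% of Serpina1d and 14.8% of Serpina1e. The authors' handling of such reads was not given in the sources used here, so levels of single copies are uncertain, while their sum is less so.

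The summed Serpina1 level was 86453 and 111709 normalised counts in Control and 232300, 234459 and 417738 in Prox1 OE, a ratio of group means of 2.98. No Prox1 OE library overlapped the Control range. Of the 5 copies, 3 were called higher.

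Serpina1b (ENSMUSG00000071178, chr12:103728156-103830373, minus strand), the most abundant copy by reads in Prox1 OE, had 32758 and 45775 normalised counts in Control and 118862, 120126 and 195124 in Prox1 OE (log2 fold change 1.86, SE 0.28, limma adjusted p 0.00408). The annotated span of Serpina1b contains Serpina1d, but the 2 genes share 0 exon bases.

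Serpina1a (chr12:103853589-103863562, minus strand) had 8569 and 16587 normalised counts in Control and 29894, 39268 and 70196 in Prox1 OE (log2 fold change 1.87, SE 0.40, limma adjusted p 0.0119). Its lowest Prox1 OE library stood clear of the higher Control library although the Control libraries themselves stood well apart. Serpina1d (chr12:103763594-103773592, minus strand) showed the largest fitted change of any member that rose, with 3727 and 7969 normalised counts in Control and 21164, 22307 and 50712 in Prox1 OE (log2 fold change 2.40, SE 0.44, limma adjusted p 0.0072). Its Control values were also spread, and the ratio of group means was 5.37. Without Control replicate 1, the limma adjusted p of Serpina1a, Serpina1b and Serpina1d became 0.109, 0.0651 and 0.0667.

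Serpina1c and Serpina1e did not pass with limma. DESeq2 called Serpina1c higher (log2 fold change 0.67, DESeq2 adjusted p 0.0472), and edgeR's quasi-likelihood test did not (adjusted p 0.106). Serpina1c (chr12:103894926-103904887, minus strand) had 38372 and 37135 normalised counts in Control and 44342, 50082 and 86244 in Prox1 OE (log2 fold change 0.61, SE 0.28, limma adjusted p 0.135), with no overlap between groups but a smaller difference than its neighbours. Serpina1e (chr12:103946931-103958975, minus strand) had 3026 and 4243 normalised counts in Control and 18039, 2675 and 15461 in Prox1 OE (log2 fold change 1.34, SE 0.74, limma adjusted p 0.200). Prox1 OE replicate 2 fell below both Control libraries for this copy alone among the 5. Leaving that library out raised the Serpina1e change to 2.22 on the log2 scale (limma adjusted p 0.0106).

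The shares of the copies in that sum also separated the groups. Serpina1c supplied 44.4% and 33.2% of Serpina1 counts in Control and 19.1%, 21.4% and 20.6% in Prox1 OE, and Serpina1b supplied 37.9% and 41% in Control and 51.2%, 51.2% and 46.7% in Prox1 OE. Neither share overlapped between groups. Serpina1d made up 4.31% and 7.13% of the counts in Control and 9.11%, 9.51% and 12.1% in Prox1 OE, again without overlap. The shares of Serpina1a and Serpina1e overlapped, and for Serpina1e they ran from 1.14% in Prox1 OE replicate 2 to 7.77% in replicate 1. These shares carry the uncertainty of shared reads described above.

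**Figure D3:**
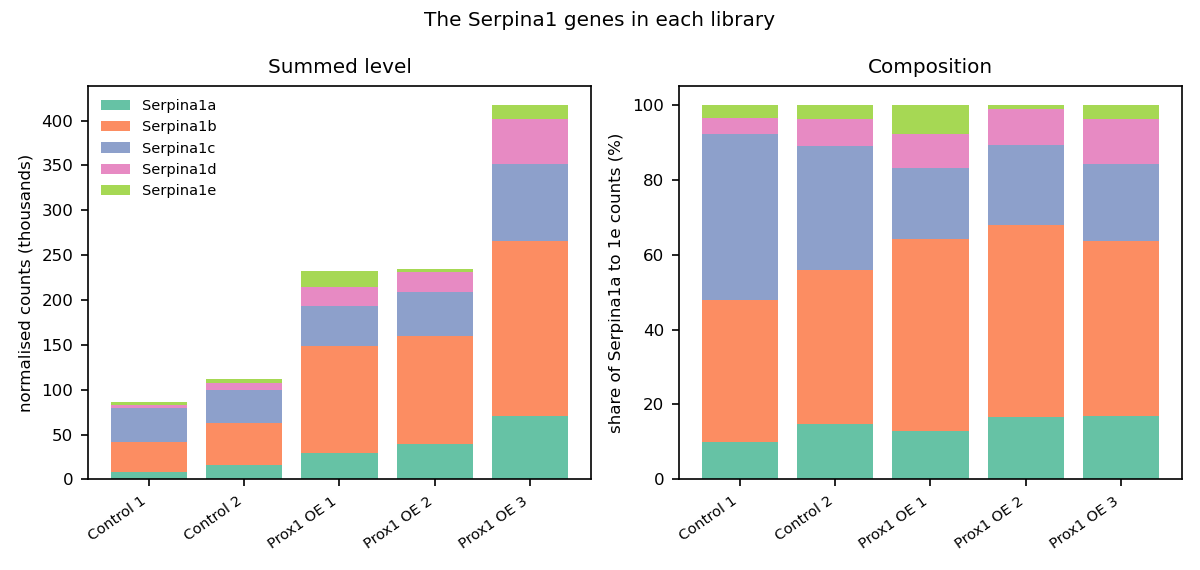
Left, summed normalised counts (y axis) of Serpina1a to Serpina1e in each library (x axis), stacked by gene. Right, the share of each gene in that sum (%), in which the Serpina1c band narrows from 44.4% and 33.2% in Control to between 19.1% and 21.4% in Prox1 OE while the Serpina1b band widens.

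The promoters of the Serpina1 copies share sequence as well. Promoters of 250 bases before to 50 bases after the start (RefSeq, GRCm38.p6) were at hand for 29 of the 39 members and numbered 32851 in all. Some genes had several promoters. A member was counted if any of its promoters held a match, whereas shares over all are per promoter. The letters GTTAAT, part of the site bound by HNF1 factors of the hepatocyte, occurred on either strand in 7.10% of all promoters and in 8 of the 29, namely those of Serpina1a to Serpina1e, Serpina3c, Serpina7 and Serpinb8. One window of 43 bases around the match, on the minus strand, was identical in all 5 Serpina1 promoters and is shown with the match in capitals.
Serpina1a to Serpina1e: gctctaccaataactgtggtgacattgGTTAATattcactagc
The window lies at chr12:103863625-103863667 for Serpina1a, chr12:103738200-103738242 for Serpina1b, chr12:103904962-103905004 for Serpina1c, chr12:103773634-103773676 for Serpina1d and chr12:103956960-103957002 for Serpina1e. The match began between 16 and 78 bases upstream of the annotated start. The same window therefore stands before the 3 copies that were called higher and the 2 that were not. TGACTCA, the AP-1 motif, was in 5.20% of all promoters and in 5 of the 29 (Serpina1a to Serpina1d and Serpinb8). CAAAGTCC, a form of the HNF4 motif, was in 1.42% of all promoters and in that of Serpinh1. TTGCGCAA, the C/EBP palindrome, was in 0.183% and in that of Serpina5. Matches to different motifs overlapped 0 times in members' promoters, and a match describes letters in this window and not a bound site.

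The Serpina3 genes are a second expanded group of clade A. They are the mouse counterparts of human alpha-1 antichymotrypsin, and Serpina3n is known as an acute-phase inhibitor of granzyme B. Of 9 Serpina3 members, 3 were called higher and 0 lower, with a median log2 fold change of 0.47, and 4 overlapped between groups. Their sum was 81746 and 97764 normalised counts in Control and 136719, 138517 and 249099 in Prox1 OE. Most of that sum came from Serpina3k and Serpina3n.

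The loop-coding stretches of 4 of these genes diverge further than those of Serpina1. They are printed with capitals at the 54 of 93 aligned positions that vary among the 4, to show that these transcripts, Serpina3f scarce among them, encode different bait loops.
Serpina3f, chr12:104220245-104220337, plus strand: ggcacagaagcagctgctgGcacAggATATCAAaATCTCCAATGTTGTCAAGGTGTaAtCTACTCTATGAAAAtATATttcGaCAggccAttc
Serpina3k, chr12:104345269-104345352, plus strand: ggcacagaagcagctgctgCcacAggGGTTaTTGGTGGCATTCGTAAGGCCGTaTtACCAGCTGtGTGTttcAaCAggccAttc
Serpina3m, chr12:104393769-104393858, plus strand: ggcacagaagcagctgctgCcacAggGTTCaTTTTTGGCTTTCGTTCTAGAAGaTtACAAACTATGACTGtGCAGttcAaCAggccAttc
Serpina3n, chr12:104413448-104413537, plus strand: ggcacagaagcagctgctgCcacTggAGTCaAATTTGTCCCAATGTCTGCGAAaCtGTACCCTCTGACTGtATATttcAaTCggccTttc
The opening 19 bases and the last 3 are the same in all 4, and what lies between differs in length as well as in letters. The whole stretch runs from 84 bases in Serpina3k to 93 in Serpina3f. Identity between pairs in this stretch was 61.1% to 77.4%, below the rest of the coding sequence (81.6% to 92.8%) in 6 of 6 pairs. Few windows of 100 bases were shared with other genes, at most 6.09% of the transcript (Serpina3m).

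Serpina3k (ENSMUSG00000058207, chr12:104338486-104346144, plus strand) had 54766 and 62288 normalised counts in Control and 105761, 85535 and 205348 in Prox1 OE. Every Prox1 OE library was above both Control libraries and replicate 3 was far above the other Prox1 OE libraries. The difference did not pass with limma (log2 fold change 1.07, SE 0.36, limma adjusted p 0.056). It passed with edgeR's quasi-likelihood test (adjusted p 0.0439) and with DESeq2 (adjusted p 0.00260), and over all alternatives its adjusted p ran from 0.00260 to 0.277. Without Prox1 OE replicate 2 or 3, limma called it higher (adjusted p 0.0480 and 0.0492).

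Serpina3m (chr12:104338486-104394257, plus strand) had 6465 and 8403 normalised counts in Control and 13121, 15089.5 and 17331 in Prox1 OE (log2 fold change 1.03, SE 0.17, limma adjusted p 0.00518), a rise with no overlap. Its annotation begins at the same base as that of Serpina3k, and the 2 genes share 60 exon bases. Without Control replicate 1 the limma adjusted p of Serpina3m was 0.0679. Serpina3n (chr12:104406729-104414329, plus strand) had 20164 and 26686 normalised counts in Control and 17290.3, 37078 and 25375 in Prox1 OE (log2 fold change 0.13, SE 0.30, limma adjusted p 0.771). Prox1 OE values lay on both sides of the Control range, and the log2 fold change was -0.30 with total-count scaling, which moved the median of all genes to -0.44.

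Serpina3f and Serpina3g were far less abundant and rose. Serpina3g is known as an inhibitor of cathepsins in T cells and other blood cells. Serpina3f (chr12:104214544-104221129, plus strand) had 28.8 and 54.2 normalised counts in Control and 128, 216 and 296 in Prox1 OE (log2 fold change 2.32, SE 0.42, limma adjusted p 0.0068). Serpina3g (chr12:104236245-104241939, plus strand) had 154 and 181 normalised counts in Control and 292, 454 and 618 in Prox1 OE (log2 fold change 1.38, SE 0.31, limma adjusted p 0.0142), and without Control replicate 1 the limma adjusted p of these genes became 0.0669 and 0.113. That of Serpina3g was also 0.0609 without Control replicate 2 and 0.0560 without Prox1 OE replicate 2. Of 7 T and NK cell markers, 5 were called higher, and their sum was 153 to 191 normalised counts in Control and 345 to 523 in Prox1 OE. Whether T cells supplied the Serpina3f and Serpina3g reads was not tested. The other 4 Serpina3 members, namely Serpina3c, Serpina3i and the pseudogenes Serpina3d-ps and Serpina3h, had means below 60 normalised counts and were not called, Serpina3h at a log2 fold change of -1.04 and an adjusted p of 0.0704.

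The other clade A genes include carriers of hormones and inhibitors of specific proteases. Serpina6, corticosteroid-binding globulin, transports glucocorticoids in blood. At chr12:103646630-103657212, minus strand, it had 2893 and 3039 normalised counts in Control and 5807, 13319.6 and 11610.5 in Prox1 OE (log2 fold change 1.70, SE 0.32, limma adjusted p 0.00809). The Control libraries were nearly level and even the lowest Prox1 OE library, replicate 1, stood well above them, although without Control replicate 1 the limma adjusted p of Serpina6 was 0.0663.

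Serpina12, vaspin, an adipokine that inhibits a tissue kallikrein, had 1332 and 1476 normalised counts in Control and 4094, 3343 and 6431 in Prox1 OE (log2 fold change 1.67, SE 0.25, limma adjusted p 0.00408). It was the only clade A gene whose call held in each of the 16 alternatives. Serpina11 had 524 and 798 normalised counts in Control and 869, 1632 and 2057 in Prox1 OE (log2 fold change 1.14, SE 0.36, limma adjusted p 0.0437), with Prox1 OE replicate 1 close to the higher Control library. That call held in 9 of 16 alternatives and was lost without Control replicate 1 or 2 or Prox1 OE replicate 2 or 3 (limma adjusted p 0.0762 to 0.267), and 42.4% of the Serpina11 transcript's windows also occur in transcripts of the gene Gm28577.

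In contrast, 2 abundant secreted members of the clade showed no call. Serpina10, which inhibits clotting factor Xa with protein Z as cofactor, had 13307 and 12871 normalised counts in Control and 9962, 17549.8 and 15479.5 in Prox1 OE (log2 fold change 0.09, SE 0.23, limma adjusted p 0.788). Prox1 OE replicate 1 was below both Control libraries and the other replicates were above them, and the log2 fold change became -0.34 under total-count scaling, again beside the median of -0.44 for all genes. Serpina7, thyroxine-binding globulin and the only clade A member outside chromosome 12 (chromosome X), had 3421 and 2760.0 normalised counts in Control and 2541, 3018 and 2155 in Prox1 OE (log2 fold change -0.27, SE 0.17, limma adjusted p 0.255). Serpina5 and the pseudogene Serpina4-ps1 had fewer than 250 normalised counts in every library, overlapped between groups and were not called.

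The 20 clade A genes on chromosome 12 lie within 799.5 kb (chr12:103614786-104414329). Along it, 9 genes called higher were interspersed with 11 that were not. Serpina6, Serpina1b, Serpina1d and Serpina1a formed an unbroken run of called genes, followed by Serpina1c and Serpina1e, and then by Serpina11 and Serpina12. At the edges of the cluster, Serpina10 and Serpina3n had log2 fold changes of 0.09 and 0.13. Genes called higher occurred on both strands.

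**Figure D4:**
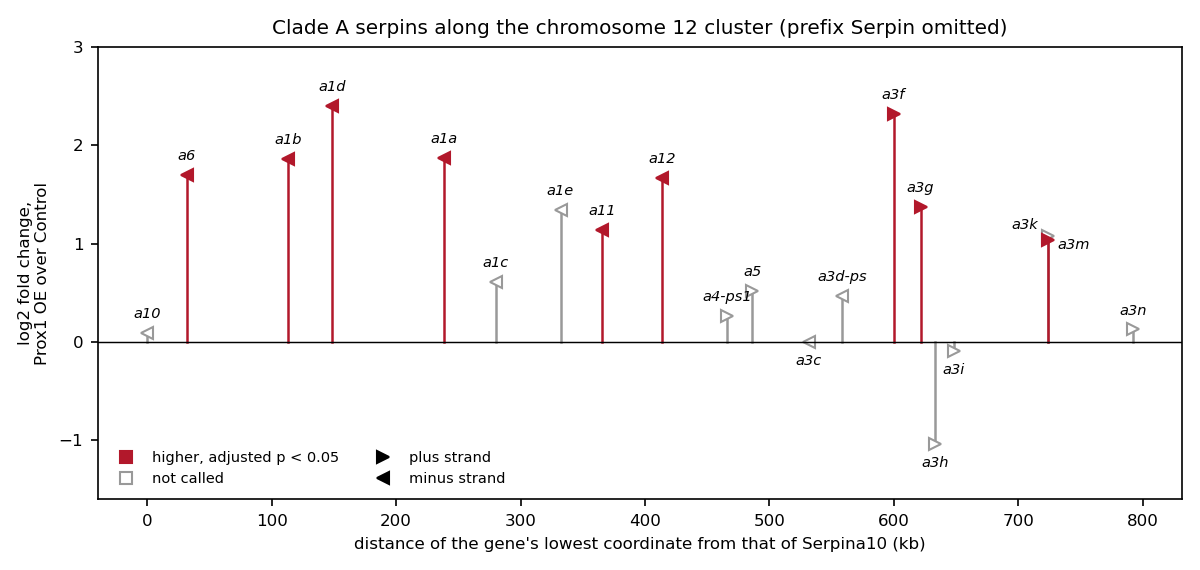
Log2 fold change (y axis, Prox1 OE over Control) of the 20 clade A serpins against distance along chromosome 12 in kb (x axis), with triangles pointing in the direction of transcription. Filled red triangles, the 9 genes called higher, are interspersed with open grey ones, and both end genes lie near 0.

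Outside clade A, the plasma inhibitors of clotting, fibrin breakdown and complement were all called higher. Antithrombin, encoded by Serpinc1, is the main plasma inhibitor of thrombin and factor Xa. Serpinc1 (ENSMUSG00000026715, chr1:160978585-161005863, plus strand) had 22647 and 31986 normalised counts in Control and 86015, 88270.4 and 123313 in Prox1 OE (log2 fold change 1.86, SE 0.24, limma adjusted p 0.00281), a ratio of group means of 3.63. The lowest Prox1 OE library was more than double the higher Control library.

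Serpind1, heparin cofactor II, a further thrombin inhibitor, had 2996 and 5211 normalised counts in Control and 14644, 11839 and 18220.1 in Prox1 OE (log2 fold change 1.89, SE 0.26, limma adjusted p 0.00326) at chr16:17331371-17343575, plus strand. Serpinf1, pigment epithelium-derived factor, a secreted serpin that does not inhibit proteases, had 7945 and 9552 normalised counts in Control and 26093, 25353 and 34223 in Prox1 OE (log2 fold change 1.70, SE 0.17, limma adjusted p 0.00234). Both showed a wide gap between groups, and the calls of Serpinc1, Serpind1 and Serpinf1 each held in 16 of 16 alternatives.

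Serpinf2, the plasmin inhibitor antiplasmin, lies next to Serpinf1 on chromosome 11 (chr11:75409769-75422701, minus strand and chr11:75431732-75439591, minus strand). It had 8348 and 13381 normalised counts in Control and 16930.4, 25646 and 30383 in Prox1 OE (log2 fold change 1.16, SE 0.29, limma adjusted p 0.0202). Prox1 OE replicate 1 was not far above Control replicate 2, and without Control replicate 1 the limma adjusted p of Serpinf2 was 0.175 (0.0742 without Prox1 OE replicate 2). Serping1, the C1 inhibitor of complement and the contact system, had 14994 and 17267 normalised counts in Control and 24828, 30580.2 and 37884 in Prox1 OE (log2 fold change 0.93, SE 0.20, limma adjusted p 0.0118), the smallest rise of the 5. Without Control replicate 1 or 2 its limma adjusted p was 0.123 or 0.0587.

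**Figure D5:**
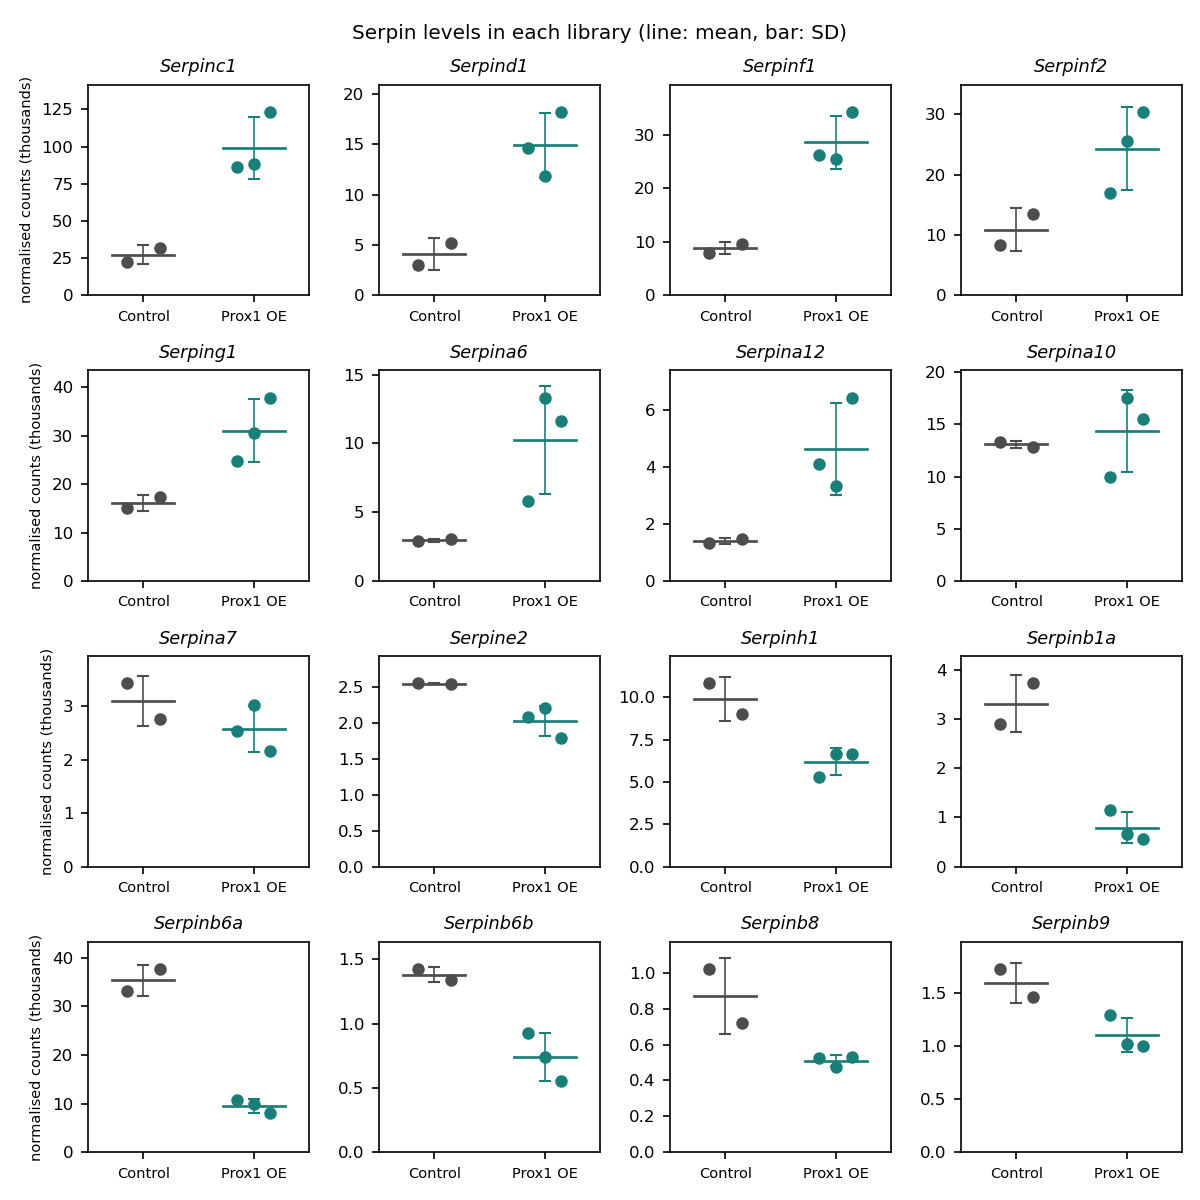
Normalised counts (y axes, each from 0) of 16 serpin genes in 2 Control libraries (grey) and 3 Prox1 OE libraries (teal), with a horizontal line at the group mean and a bar for the SD. Serpinc1 through Serpina12 stand higher in Prox1 OE, Serpina10 and Serpina7 overlap, and the genes from Serpine2 onwards stand lower in every Prox1 OE library, Serpine2 by the smallest ratio.

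Serpine2 encodes protease nexin, a cell-surface inhibitor of thrombin and other serine proteases. It had 2555 and 2552 normalised counts in Control and 2082, 2217 and 1799 in Prox1 OE, below Control in each library but by a small step that was not called (log2 fold change -0.33, SE 0.13, limma adjusted p 0.0787). Scaled by total count instead, Serpine2 was called lower (log2 fold change -0.77, adjusted p by limma 0.00718).

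Serpinh1 of clade H (HSP47) is a collagen chaperone of the endoplasmic reticulum and not a protease inhibitor. It had 10806 and 8988 normalised counts in Control and 5314, 6635 and 6662 in Prox1 OE (log2 fold change -0.68, SE 0.15, limma adjusted p 0.0142), without overlap, and its limma adjusted p was 0.149 without Control replicate 1. Of 8 fibroblast and stellate cell markers, 4 were called lower and 1 higher (50% and 12.5%, against 16.2% and 17.1% of all genes). The sum of the 8 was 123603 to 128916 normalised counts in Control and 69039 to 81353 in Prox1 OE. The collagen gene Col1a1 had 31809.5 and 29586 normalised counts in Control and 13386, 15445 and 10742 in Prox1 OE (log2 fold change -1.23, SE 0.17, limma adjusted p 0.00335). Whether fewer collagen-producing cells supplied the lower Serpinh1 level was not tested. Serpini1, neuroserpin, the only clade I member, had 104 and 126 normalised counts in Control and 82.8, 97.9 and 102 in Prox1 OE (log2 fold change -0.29, SE 0.24, limma adjusted p 0.378), lower in each Prox1 OE library but not called.

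Clade B holds intracellular serpins, several of which protect cells from their own or neighbouring leukocytes' proteases. Summed over the 9 members, the level was 40269 and 44986 normalised counts in Control and 14695, 13023 and 10805 in Prox1 OE. The Control mean was 3.32 times the Prox1 OE mean and the ranges were far apart. Serpinb6a made up 82.1% and 83.6% of that sum in Control and 72.6% to 76.6% in Prox1 OE.

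Serpinb6a (ENSMUSG00000060147, chr13:33917918-34002794, minus strand), a broadly expressed cytosolic inhibitor of serine proteases, had 33079 and 37626 normalised counts in Control and 10669, 9977 and 8025 in Prox1 OE (log2 fold change -1.89, SE 0.16, limma adjusted p 0.00178). Serpinb1a, an inhibitor of neutrophil elastase and cathepsin G, had 2908 and 3725 normalised counts in Control and 1158, 659.6 and 560.2 in Prox1 OE (log2 fold change -2.13, SE 0.30, limma adjusted p 0.00326) at chr13:32842092-32851185, minus strand. In both genes each Prox1 OE library was below 50% of the lower Control library. Both calls held in 16 of 16 alternatives.

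Serpinb2, an inhibitor of plasminogen activators, made by stimulated macrophages and keratinocytes, was scarce. It had 22 and 63 reads in the Control libraries and 0 in each Prox1 OE library, equal to 18.1 and 53.4 normalised counts against 0. Taking 3 reads per library as the limit that a count of 0 allows, the gene was at least 10.6-fold lower in Prox1 OE (limma adjusted p 0.00353). That limit covers counting error only, and it became 5.38-fold without Control replicate 2 and 15.9-fold without Control replicate 1.

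Smaller falls were called for 4 further genes. Serpinb6b had 1422 and 1338 normalised counts in Control and 923, 739.8 and 552 in Prox1 OE (log2 fold change -0.93, SE 0.21, limma adjusted p 0.0153). Serpinb8, an inhibitor of furin, had 1019 and 721 normalised counts in Control and 522, 474 and 530.1 in Prox1 OE (log2 fold change -0.75, SE 0.18, limma adjusted p 0.0176), and Serpinb9, the granzyme B inhibitor of cytotoxic lymphocytes, had 1721 and 1459 normalised counts in Control and 1289, 1022 and 999 in Prox1 OE (log2 fold change -0.53, SE 0.16, limma adjusted p 0.037). Groups did not overlap for any of them, and the steps were below 1 on the log2 scale. Serpinb9b had 25.5 and 28.8 normalised counts in Control and 11.2, 10.6 and 8.1 in Prox1 OE (log2 fold change -1.37, SE 0.41, limma adjusted p 0.0384), few reads for a larger step. With group means of 27.1 and 9.99, Serpinb9b met the minimum of 10 only through Control. Serpinb6b and Serpinb8 lost their calls without Control replicate 1 (limma adjusted p 0.119 and 0.202) or Prox1 OE replicate 2 (0.0519 and 0.0605), and Serpinb6b also without Control replicate 2 (0.0797). Serpinb9 (0.0912 to 0.279) and Serpinb9b (0.0715 to 0.176) lost theirs without Control replicate 1 or 2 or Prox1 OE replicate 2 or 3, and over all settings these calls held in 9 of 16 and 8 of 15 alternatives.

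Against the trend of the clade, Serpinb9e was called higher, with 67.4 and 28.8 normalised counts in Control and 102, 124 and 118 in Prox1 OE (log2 fold change 1.35, SE 0.37, limma adjusted p 0.0293). Control replicate 1 was more than double replicate 2, and without replicate 2 the fitted change dropped to 0.75 on the log2 scale (limma adjusted p 0.195). The call was also lost without Prox1 OE replicate 2 or 3 (limma adjusted p 0.0944 and 0.0710). Its neighbour Serpinb9f had 9.04 and 5.09 normalised counts in Control and 19.4, 16.5 and 12.7 in Prox1 OE (log2 fold change 1.12, SE 0.48, limma adjusted p 0.109). Windows of 100 bases shared with other genes made up 10.1% of the Serpinb9e transcript and 52.3% of Serpinb9f, so these low counts may include reads of related copies. The 7 clade B genes on chromosome 13 gave 5 lower, 1 higher and 1 uncalled, and both on chromosome 1 (Serpinb2 and Serpinb8) were called lower.

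Leukocytes also express Serpinb9 and its relatives, and their markers were therefore examined. Over all genes tested, 17.1% were called higher and 16.2% lower. Besides the T and NK cell list, 2 of 7 macrophage markers were called higher and 1 lower (sums of 25693 to 29422 normalised counts in Control and 35108 to 53081 in Prox1 OE). None of 5 tested neutrophil markers was called (741 to 1129 and 978 to 1296). For B cells 1 of 3 was called higher (109 to 126 and 176 to 225), and of platelet and megakaryocyte markers 0 of 2 (490 to 524 and 434 to 546). For erythroid cells 1 of 3 was called higher (3921 to 5763 and 6630 to 13932), and of 6 endothelial markers 1 was called higher and 1 lower (8566 to 10432 and 8430 to 11136). Markers of squamous epithelium, where several clade B serpins are abundant, were all under the minimum of 10, with sums of 7.63 to 35.3 in Control and 0 to 8.18 in Prox1 OE.

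The proteases and cofactors on which serpins act were examined beside them. Of 31 tested among 34, 20 were called higher and 5 lower (5 and 2 without Control replicate 1, 16 and 2 without Control replicate 2). Over all genes tested, 17.1% were called higher and 16.2% lower. All 13 plasma proteases were called higher, with log2 fold changes from 0.73 to 1.83 (median 1.38). They included the antithrombin targets F2 (log2 fold change 1.38, SE 0.19, limma adjusted p 0.00322) and F10 (log2 fold change 1.70, SE 0.24, limma adjusted p 0.00339), the antiplasmin target Plg (log2 fold change 1.53, SE 0.29, limma adjusted p 0.00848) and the C1 inhibitor target C1s1 (log2 fold change 1.07, SE 0.17, limma adjusted p 0.00438). All 13 exceeded the Control range in 3 of 3 Prox1 OE libraries, as did 30.9% of all genes.

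Of 10 tissue and membrane proteases, 3 were called higher and 4 lower (30% and 40%, against 17.1% and 16.2% of all genes). Those called higher, named after their values were seen, were the cytosolic caspase Casp1 (log2 fold change 0.72, SE 0.23, limma adjusted p 0.0481), the lysosomal cathepsin Ctsl (log2 fold change 0.94, SE 0.16, limma adjusted p 0.00547) and the membrane protease hepsin, Hpn (log2 fold change 0.96, SE 0.13, limma adjusted p 0.00314). The 4 called lower were the secreted plasminogen activators Plau and Plat and the membrane proteases Prss8 and St14 (log2 fold changes of -0.76 and -0.84). The plasminogen activator Plau had 1057 and 876 normalised counts in Control and 552, 452 and 359.9 in Prox1 OE (log2 fold change -1.10, SE 0.21, limma adjusted p 0.00766). A second plasminogen activator, Plat, had 1807 and 1734 normalised counts in Control and 964, 884 and 859 in Prox1 OE (log2 fold change -0.97, SE 0.12, limma adjusted p 0.00272), and the Plau receptor Plaur had 515 and 800.2 normalised counts in Control and 262, 249 and 189 in Prox1 OE (log2 fold change -1.47, SE 0.24, limma adjusted p 0.00525). Plau, Plat and Plaur each fell below the Control range in 3 of 3 Prox1 OE libraries, as did 32.4% of all genes. By contrast vitronectin, Vtn, a liver-secreted adhesion protein, was higher (log2 fold change 0.92, SE 0.22, limma adjusted p 0.0176).

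Of 5 cofactors and receptors, 3 were called higher and 1 lower (60% and 20%, against 17.1% and 16.2% of all genes). The protein Z gene Proz, whose product assists Serpina10, had 2939 and 4589 normalised counts in Control and 8509, 9299 and 12975 in Prox1 OE (log2 fold change 1.46, SE 0.24, limma adjusted p 0.00511), while Serpina10 itself was not called. Among leukocyte proteases 3 of 6 passed the minimum, and only Gzmb, granzyme B, was called, with 13.1 and 5.93 normalised counts in Control and 36.8, 51.9 and 38.2 in Prox1 OE (log2 fold change 2.11, SE 0.44, limma adjusted p 0.0112). Gzmb met the minimum of 10 only through Prox1 OE, with group means of 9.54 in Control and 42.3 in Prox1 OE. Serpinb9, which inhibits granzyme B, was called lower.

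The 29 serpin genes under the minimum were mostly near silent. They comprised 8 of clade A, 19 of clade B, Serpine3 and Serpini2. Of these, 8 had no read in any library, a count that allows up to 2.46 to 3.54 normalised counts per library. The squamous clade B genes Serpinb3a, Serpinb3b, Serpinb3c, Serpinb3d, Serpinb11 and Serpinb13 were among the silent ones. The member just inside the minimum was Serpinb9f, with a mean of 12.6 normalised counts, and the gene just outside it was Serpina3b, with 8.68.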

How the data were processed

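Tumour RNA was made into strand-preserving dUTP libraries and sequenced as paired reads of 100 bases. The authors mapped reads to mm10 with STAR, and the counting tool was not given in the sources used here. The deposited signal is the normalised read count per gene, reads divided by a DESeq2 size factor, from which whole reads were recovered for 100% of values (tolerance 0.01 reads). A deposited table of the authors' own comparison (means, log2 fold changes, p-values) was not used. Symbols and coordinates came from GENCODE M21, which matched 99.5% of 55397 identifiers. Members and lists were chosen with earlier results of these data known.

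Genes with a mean of at least 10 were tested, two-sided, by limma 3.58.1 (R 4.3.3; eBayes with trend) on log2(normalised count + 1), with Benjamini-Hochberg adjustment over 17105 genes and no covariate. On simulated counts for this comparison, with 200 of 17105 genes changed, limma recovered 82% of 4-fold and 57% of 2-fold changes with 15 false calls. In the data 33.3% of genes were called, so the simulation does not give the recovery or the share of false calls there. Values in every library were given for members past the threshold with a log2 change of at least 1, the most abundant member of each clade and members with textbook roles, and for others where a comparison needed them. A member that enters the counts is not reported here by itself. Lists of proteases, cofactors and cell type markers were counted. Alternatives comprised TMM, upper-quartile and total-count scaling, pseudocounts of 0.1 and 10, no filter or a mean of at least 50, no trend, edgeR 4.0.16, DESeq2 1.42.0, a replicate block, each library left out and, chosen after seeing the data, levels per kb of transcript. Totals of 48740863 to 56629477 reads and the floor of 3 reads carry counting error only. Coding stretches were aligned with MAFFT 7.526.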

Additional observations from a re-analysis of the deposited data

Results flagged for a closer look

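Serpina3b lay below the minimum for testing and so outside the comparison, yet showed a signal above Control. It had 1 read in each Control library and 19, 13 and 6 reads in Prox1 OE replicates 1, 2 and 3. Its mean normalised count in Prox1 OE was 13.9, and no test was made.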

How the results depend on the processing

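The counts of serpins called were close to 15 higher and 9 lower under other scalings, pseudocounts, filters and tools, except that the total count as library size gave 13 higher and 13 lower. Under it Serpina3h, Serpina7, Serpine2 and Serpini1 were also called lower, and Serpina11 and Serpinb9e lost their calls. edgeR called 25 serpins (24 shared with limma in direction) and DESeq2 25 (23 shared). Calls of Serpina12, Serpinb1a, Serpinb2, Serpinb6a, Serpinc1, Serpind1 and Serpinf1 held under every alternative in which they were tested. A mean of at least 50 left 6 members untested. Directions of uncalled genes near 0 reversed. The log2 fold change of Serpina3c became 0.0168 with TMM factors, 0.0705 with upper-quartile factors and 0.00041 with a pseudocount of 0.1. With the total count as library size it became -0.34 for Serpina10, -0.30 for Serpina3n and -0.17 for Serpina4-ps1. That scaling moved the median of all genes from -0.02 to -0.44, a shift in which genes near 0 share. For the other settings the cause was not tested.

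With the replicate number as a block, 24 serpins were called (16 higher and 8 lower), as were 21 and 5 targets, and Serpina4-ps1 turned to -0.18. The block drops Prox1 OE replicate 3, deviations of same-numbered libraries had correlations of 0.137 and 0.0156, and the labels do not tie the numbers to animals, so the numbers were not taken as pairs.

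Leaving out 1 library at a time gave 5 to 15 serpins higher and 4 to 9 lower, and 5 to 18 targets higher and 2 to 5 lower, with the lowest counts without Control replicate 1. Clade A then had 1 to 9 higher calls and clade B 3 to 7 lower calls. Fewer libraries were then fitted, and the lone Control library was assumed to vary like the others. Log2 fold changes that reversed ran from -0.0757 to 0.33 for Serpina10, -0.15 to 0.40 for Serpina3n, -0.42 to 0.41 for Serpina3c, -0.0562 to 0.99 for Serpina3d-ps, -0.27 to 0.0778 for Serpina3i and -0.18 to 0.76 for Serpina4-ps1. Low counts limit Serpinb9b, Serpinb9f, Serpina3c and Serpinb2, and shared sequence limits Serpina1 copies, Serpina11 and Serpinb9f.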
